A study of Oryza sativa with 6 samples.

Results

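Histone, chromatin and cell division genes were described in the basal shoot of rice (Oryza sativa). The members are those genes of the authors' table of called genes whose descriptions name a histone, nucleosome, chromatin, cyclin, kinesin, cell division, mitosis, high mobility protein or topoisomerase, without the descriptions that also name an F-box or a homeobox. There were 46 members among the 1962 genes of that table, and 27397 genes had values in all; 8 further genes matched a word and were left out for an F-box description. RNA was sequenced from 3 samples of pine1-1a, a knockout line of PINE1 in the Nipponbare background, and from 3 samples of wild-type Nipponbare. Each sample pooled the lowest 1 cm of 8 plants, a piece that holds stem and shoot apical meristem. Plants were untreated, grew in 16 h days and were taken 20 days after germination. The sources used here describe a single mutant line, and they name pools of plants but no separate sowings, so the spread given below is that between these samples.

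A nucleosome is DNA wrapped around an octamer of the core histones H2A, H2B, H3 and H4, and histone H1 binds the linker DNA between octamers. Most core histone RNA is made while a cell copies its DNA, so its level in a plant organ is commonly read as a mark of dividing cells, and in shoots such cells lie mainly in the meristem, the young leaf bases and the intercalary zone of internodes. Cyclins with their kinases drive the steps of the cell cycle, inhibitors of the KRP family hold those kinases back, and kinesins move along microtubules in the spindle and the phragmoplast. The title of the series presents PINE1 as a transcription factor acting on chromatin that keeps internodes short.

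PINE1 (Os12g0617000) had 5199, 5044 and 4173 normalized reads in the libraries labelled pine1, against 3569, 3674 and 2943 in wild type. Its RNA was thus higher in the libraries of the knockout line. The labels do not say what the mutation is, and every direction below refers to the libraries labelled pine1. Recovered reads per library ranged from 27918842 to 36250239. OSH1 and OSH15, the KNOX genes taken as markers of the shoot apical meristem, were read in every library. Libraries of the same genotype differed beyond counting error, since the chi-square statistic of each pair was 6.47 to 10.3 times its degrees of freedom.

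The members were chosen by the authors' own test of pine1 against wild type, so their changes are given as a description, with no p-value. That test called 7.16% of all 27397 genes, 4.28% higher in pine1 (1172 genes) and 2.88% lower (790 genes). Among the 46 members, the authors' deposited table has 40 higher in pine1 and 6 lower. Differences below are on the log2(normalized reads + 1) scale, pine1 minus wild type, with the standard error (SE) of a limma fit to all 24149 genes that passed a filter on low reads; all 46 members passed it. By limma at an adjusted p under 0.05, 28 members were called higher and 6 lower. Over all genes tested the same rule called 6.46%, with 4.02% higher and 2.44% lower. The libraries of the genotypes did not overlap in 38 members with pine1 above and in 6 with pine1 below, and overlapped in 2; over all genes tested they were apart in 26.4%, with 13.5% above and 12.9% below. Because the members come from a test of the same contrast, nothing is read from these counts. The limma count also fell with any library left out, in fits that have fewer libraries. With pine1 replicate 1 left out it was 16 higher, with pine1 replicate 2 left out 15, and with pine1 replicate 3 left out 17. Leaving out a wild type library gave 12 (replicate 1), 12 (replicate 2) or 14 (replicate 3) higher. The count of lower members was 2 with pine1 replicate 1 left out, and 2, 2 and 3 with wild type replicate 1, 2 or 3 left out. Over all genes tested, such fits called 563 to 757 higher, against 970 with all libraries, and 261 to 544 lower, against 589.

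Histones made up 25 of the 46 members: 9 described as H2A, 4 as H2B, 1 as H3, 8 as H4 and 3 as H1. All 25 were higher in pine1. One H2A gene, nearly silent in wild type only, is taken up below. The differences of the other 24 lay between 0.19 and 0.33 on the log2 scale, with a median of 0.26. In 23 of these 24 genes the 3 pine1 libraries stood above all 3 wild type libraries, against 13.5% of all genes tested. Since the members were chosen by this contrast, nothing is read from that count or from the separations given below. In the remaining gene, the H1 variant Os07g0184800, the lowest pine1 library fell below the highest wild type library. The members of near-identical histone families can share reads, and the sources do not say how the counting treated such reads, so the level of a single copy is less certain than that of its family.

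The H2A members were led in reads by Os03g0279200, on chromosome 3. It had 51820, 50501 and 51334 normalized reads in pine1, against 41182, 42615 and 42747 in wild type. All pine1 libraries were above all wild type libraries, and the difference was 0.28 (SE 0.040). Os08g0427700 had 6883, 6188 and 7040 normalized reads in pine1, against 5356, 5262 and 5507 in wild type. Its difference, 0.32 (SE 0.056), was the highest of the 8 abundant H2A members. Os03g0162200 was close to it, at 6214, 5933 and 6237 normalized reads in pine1 and 4928, 4995 and 5027 in wild type, a difference of 0.30 (SE 0.043). The lowest of the 8 was Os01g0502700, with 3367, 3398 and 3301 in pine1 against 2938, 2858 and 2992 in wild type (0.20, SE 0.045). The 95% intervals of the highest and the lowest, 0.19 to 0.44 and 0.09 to 0.30, overlapped. Os05g0113900 (0.27), Os10g0418000 (0.24), Os12g0438000 (0.22) and Os12g0530000 (0.21) lay between them.

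Os01g0974600, also described as similar to H2A, differed from all other histone members. It had 155, 180 and 143 normalized reads in pine1, against 1.09, 0 and 0 in wild type. That is 465 reads in the pine1 libraries together and 1 read in the wild type libraries together, a read ratio of 499 after scaling (exact 95% interval 89.2 to 19763, counting error only). The fitted difference of 6.96 rests on the added 1 and is not comparable with those of the abundant genes. The gene has no description in the second annotation (MSU) that the authors list. Without wild type replicate 1, the library with the 1 read, wild type had no read of it at all.

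Among the H2B members, Os08g0490900 had 28783, 26879 and 27822 normalized reads in pine1, against 24376, 23433 and 23839 in wild type (0.22, SE 0.043). Os05g0574300 had 18012, 17834 and 19031 in pine1, against 14821, 15262 and 14936 in wild type, the largest difference of the 4 (0.29, SE 0.043). For both genes the groups did not overlap. Os01g0153300 had 14824, 15481 and 15958 normalized reads in pine1, against 13222, 13122 and 13005 in wild type (0.23, SE 0.043). With 1 locus of the normalized table between them, it follows Os01g0153100, a gene described both as similar to H2B and as an F-box gene and so not a member. That neighbour had 17838, 18406 and 18712 normalized reads in pine1, against 14817, 15921 and 15569 in wild type, a difference of 0.25 (SE 0.044). The remaining member, Os01g0149600, carries the symbol H2B and differed by 0.20 (SE 0.056).

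The single H3 member, Os01g0866200, had 22222, 20886 and 22687 normalized reads in pine1, against 17075, 17847 and 17844 in wild type. Its lowest pine1 library stood well above its highest wild type library, and the difference was 0.32 (SE 0.046), a ratio of means of 1.25.

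The 8 H4 members differed by 0.19 to 0.33, with a median of 0.26, and in all 8 the groups were apart. The largest difference was that of Os02g0684500, with 14535, 14694 and 15280 normalized reads in pine1 and 11126, 11937 and 12426 in wild type (0.33, SE 0.051, 95% interval 0.21 to 0.44). The smallest was that of Os04g0583600, with 11172, 10732 and 10693 in pine1 and 9349, 9743 and 9554 in wild type (0.19, SE 0.042, 95% interval 0.09 to 0.28). These intervals overlapped, and whether the H4 copies differ from each other in the size of their difference was not tested. Os01g0835900 had 16091, 15430 and 15009 normalized reads in pine1, against 13195, 13866 and 13434 in wild type (0.20). Os10g0539500, which carries the symbol H4, had 11514, 12105 and 12013 in pine1, against 9240, 10312 and 10325 in wild type (0.26). Os03g0119900 (0.26), Os05g0466600 (0.21), Os07g0549900 (0.28) and Os09g0433600 (0.31) filled the range, and the last had the widest spread between replicates of the 8, a pooled SD of 0.15 on the log2 scale.

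The 3 H1 members differed by 0.28 to 0.29, and the median of their pooled SD was 0.14 on the log2 scale, against 0.058 for the 22 core histone members; single core genes such as Os09g0433600 varied as much. Os03g0799000 had 9886, 10230 and 10905 normalized reads in pine1, against 8024, 8235 and 9224 in wild type (0.29, SE 0.062); the MSU annotation lists it as a retrotransposon protein. Os06g0130800 had 6004, 7145 and 5333 in pine1, against 4646, 5202 and 5252 in wild type (0.28, SE 0.098). Its pine1 replicate 3 was only just above the wild type libraries. Os07g0184800 had 3844, 4608 and 4308 in pine1, against 3188, 3414 and 3879 in wild type (0.28, SE 0.085), and MSU describes it by an AT hook, a short DNA-binding motif.

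**Figure D1:**
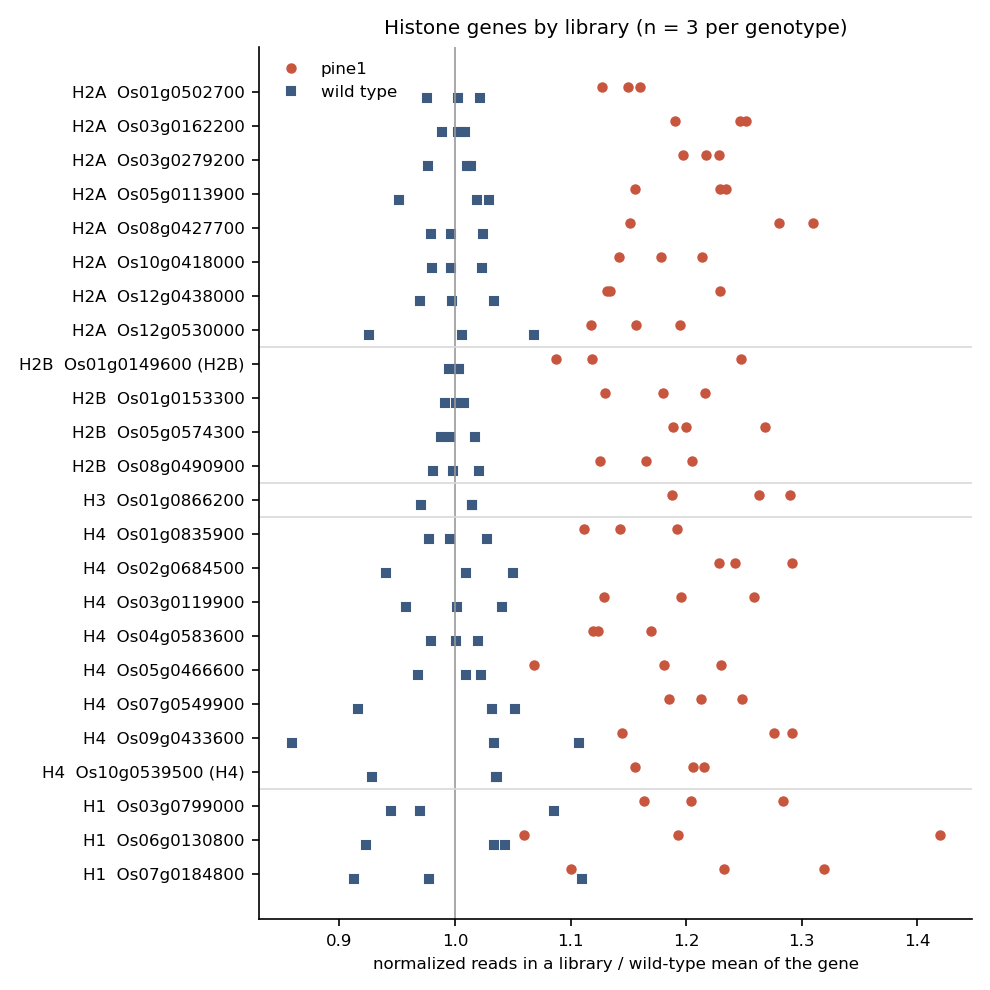
Normalized reads of 24 histone members in each library, divided by the wild-type mean of the gene (x axis, no unit), with pine1 as circles and wild type as squares; Os01g0974600 is not drawn. In 23 of the 24 genes, which were chosen by this contrast, all pine1 circles lie to the right of the wild type squares.

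Taken as sums, the 22 core histone members held 0.858% ± 0.020 of all normalized reads in pine1 and 0.718% ± 0.018 in wild type (SD, n = 3 each). The pine1 libraries held 0.873%, 0.835% and 0.867%, against 0.697%, 0.726% and 0.732% in wild type. The ratio of the summed means was 1.21 for H2A, 1.18 for H2B, 1.25 for H3, 1.19 for H4 and 1.22 for H1. Os03g0279200 alone gave 51218 of the mean H2A sum of 97164 in pine1 and 42181 of 80497 in wild type. The H2A and H2B values therefore depend on the description of that gene as H2A. Within the core histone sum, H2A took 36.2% ± 0.12 of it in pine1 and 35.9% ± 0.17 in wild type, and H4 took 30.2% ± 0.23 in pine1 and 30.4% ± 0.64 in wild type. H2B took 25.4% ± 0.21 in pine1 and 25.8% ± 0.71 in wild type, and H3 took 8.18% ± 0.17 in pine1 and 7.85% ± 0.032 in wild type. For H3 the libraries did not overlap, at 7.98% to 8.31% in pine1 and 7.81% to 7.87% in wild type. H3 is here 1 gene, and the members were chosen by this contrast, so nothing is read from that separation. These are shares of reads among genes the authors called, and longer transcripts give more reads, so they are not shares of molecules.

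**Figure D2:**
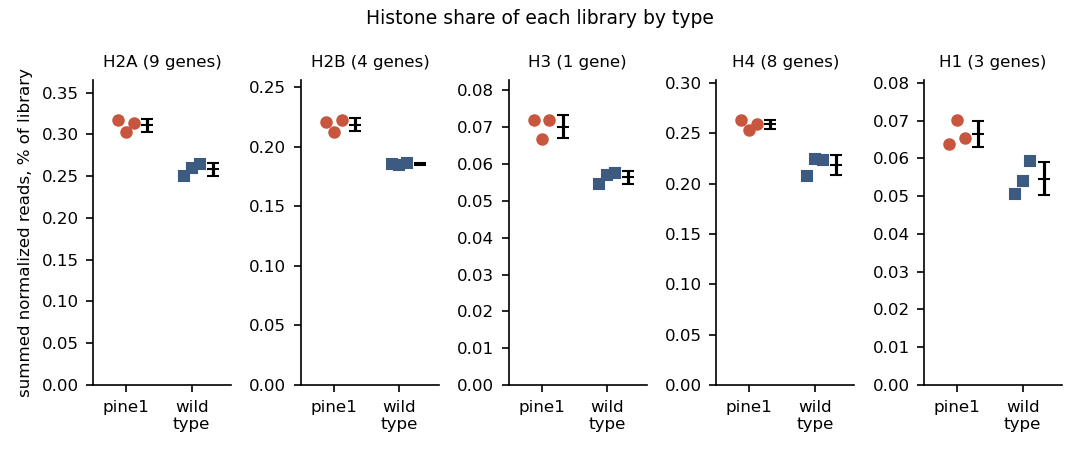
Summed normalized reads of the histone members by type, as a percent of all normalized reads in each library (y axes start at 0 and differ between panels); points are libraries, and bars are mean ± SD of 3. In each panel the 3 pine1 libraries lie above the 3 wild type libraries, for genes chosen by this contrast.

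Among cell cycle regulators, the members that take part in mitosis were slightly higher in pine1. CycB1 (Os01g0805600), a B-type cyclin that carries cells into mitosis, had 5109, 5235 and 5466 normalized reads in pine1, against 4835, 4362 and 4385 in wild type (0.22, SE 0.055). CDKB2 (Os08g0512600), a plant-specific kinase that pairs with mitotic cyclins, had 6151, 6080 and 6356 in pine1, against 5488, 5202 and 5475 in wild type (0.20, SE 0.045). In both genes all pine1 libraries were above all wild type libraries. The kinases of the mitotic checkpoint, which delay chromosome separation until the spindle is attached, were at a similar distance. Os02g0193600, with a Bub1 domain, had 1982, 2104 and 1991 normalized reads in pine1, against 1753, 1752 and 1757 in wild type (0.21, SE 0.050). BRK1 (Os07g0508500), a BUB1-like kinase described for tension between homologous kinetochores, had 1720, 1554 and 1850 in pine1, against 1528, 1315 and 1401 in wild type (0.27, SE 0.080).

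The other 4 regulators were lower in pine1, and 2 of them are described as inhibitors of cyclin-dependent kinases. KRP1 (Os02g0762400), described with a role in seed development, had 863, 929 and 758 normalized reads in pine1, against 1130, 1209 and 1044 in wild type. Its highest pine1 library was below its lowest wild type library, and the difference was -0.41 (SE 0.089). OsiICK4 (Os09g0459900), similar to an inhibitor of the same family, had 67.6, 72.8 and 76.7 in pine1, against 119, 124 and 110 in wild type (-0.70, SE 0.15). CycU4 (Os10g0563900), a U-type cyclin by its symbol, had 465, 779 and 562 normalized reads in pine1, against 915, 994 and 977 in wild type (-0.71, SE 0.16). The pine1 values of CycU4 were spread widely, yet all stood below wild type. OsSTA80 (Os02g0780500), which only MSU calls cyclin-related, had 128, 110 and 144 in pine1, against 183, 199 and 216 in wild type (-0.65, SE 0.14).

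Of the 6 kinesin members 5 were higher in pine1, by 0.21 to 0.44, and 1 was lower. STD1 (Os02g0810200), described as a kinesin-related protein in cell division and plant development, had 4557, 4466 and 4758 normalized reads in pine1, against 4096, 3753 and 3928 in wild type (0.23, SE 0.051). Os08g0558400 had 9305, 9168 and 10509 in pine1, against 8455, 8006 and 8459 in wild type (0.22, SE 0.059). The groups did not overlap in either. Os05g0397900 differed by 0.21 (SE 0.051) and Os04g0375900 by 0.23 (SE 0.060). Os01g0260100 had 570, 439 and 563 normalized reads in pine1, against 410, 405 and 339 in wild type, a difference of 0.44 with a larger error (SE 0.12). Os06g0206700, similar to a kinesin-related protein in one annotation and undescribed in the other, went the other way. It had 174, 190 and 175 normalized reads in pine1, against 501, 414 and 530 in wild type, 2.66-fold lower in pine1 (-1.41, SE 0.12).

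Enzymes that modify histones were few, and they did not share a direction. SDG714 (Os01g0927000), a histone-lysine methyltransferase by its description, had 1902, 1931 and 1872 normalized reads in pine1, against 1574, 1552 and 1605 in wild type (0.27, SE 0.049). OsHAC704 (Os06g0704800), a probable histone acetyltransferase, had 58.0, 47.5 and 53.0 in pine1, against 122, 137 and 148 in wild type, 2.54-fold lower in pine1 (-1.35, SE 0.16). OsglHAT1 (Os06g0650300), an H4 acetyltransferase described as acting on grain weight and biomass, had 102, 109 and 65.4 normalized reads in pine1, against 32.8, 37.5 and 66.7 in wild type (1.03, SE 0.30). Its groups overlapped, since wild type replicate 3 and pine1 replicate 3 were level.

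The high mobility group proteins, which bend or bind DNA in chromatin, and the topoisomerase were higher in pine1 by 0.20 to 0.27. Os02g0258200, an HMG1/2-type gene, had 7478, 7455 and 7568 normalized reads in pine1, against 7050, 6208 and 6330 in wild type (0.20, SE 0.054). Os08g0428800, described as similar to HMG I/Y and by MSU as a linker histone, had 4260, 4246 and 3913 in pine1, against 3398, 3369 and 3559 in wild type (0.27, SE 0.052). It lies near the H2A member Os08g0427700 on chromosome 8, with 6 loci of the normalized table between them. TOP3 (Os09g0500600), similar to topoisomerase III, an enzyme that passes DNA strands through one another, had 1556, 1510 and 1551 in pine1, against 1278, 1274 and 1364 in wild type (0.24, SE 0.055). OSHAP5C (Os03g0251350) was caught by its histone fold, but its symbol belongs to the HAP5 subunits of a transcription factor that binds CCAAT boxes. It had 305, 295 and 256 normalized reads in pine1, against 191, 196 and 186 in wild type (0.57, SE 0.11).

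**Figure D3:**
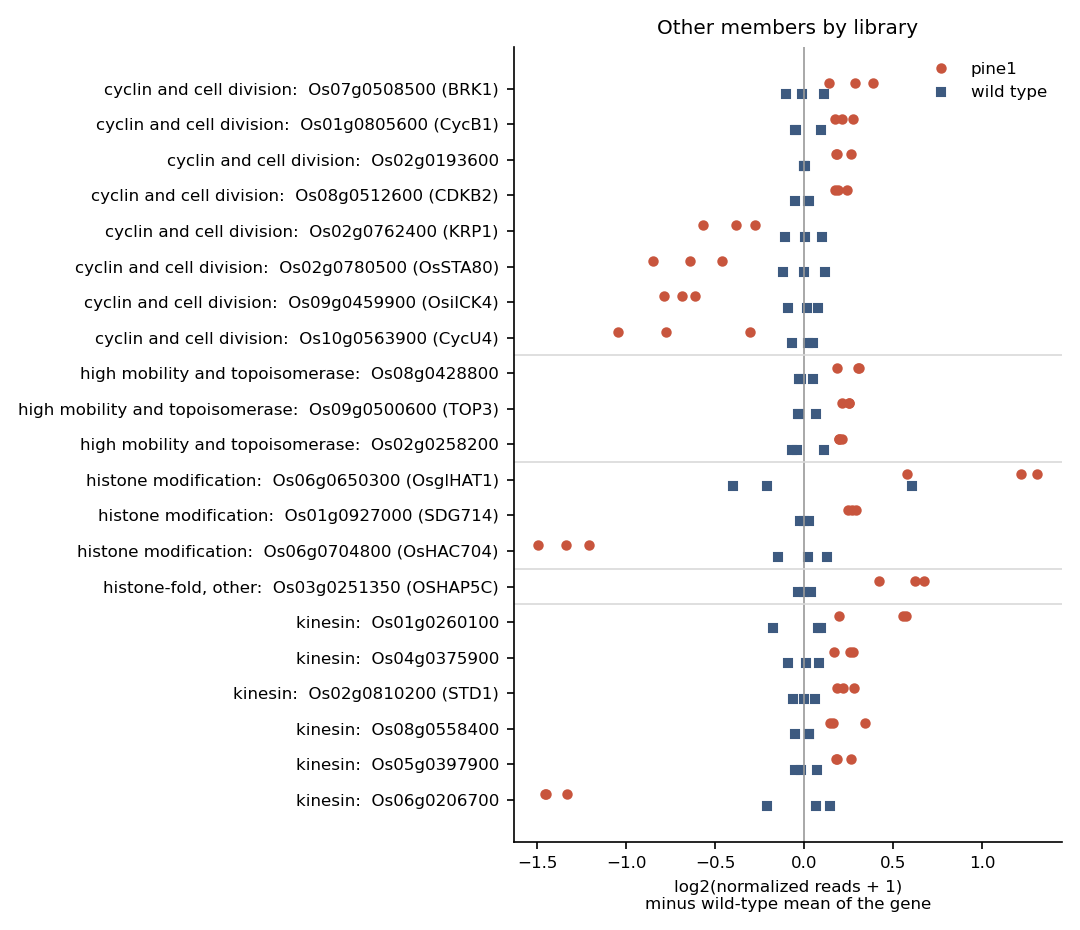
The 21 members that are not core or linker histones, as log2(normalized reads + 1) in each library minus the wild-type mean of the gene (x axis), with pine1 as circles and wild type as squares. In 15 genes the pine1 mean lies above wild type, and the 6 genes to the left of 0 include KRP1, OsiICK4, CycU4, OsHAC704 and the kinesin-like Os06g0206700.

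By level, 36 of the 46 members had a mean of at least 1000 normalized reads, and these 36 were higher in pine1 by 0.19 to 0.33. The members that were lower in pine1 had at most 1209 normalized reads in any library. Choosing genes by a test lets small differences in only where replicates are close, as in abundant genes, and sparse genes only with large ones, so nothing is read from this split or from the members' spread. In the authors' deposited table, 38 of the 46 members had an absolute log2 fold change under 0.5, against 39.8% of all genes in it. The members nearest the limit of that table were BRK1, Os02g0193600 and OsglHAT1, with adjusted p-values of 0.0387, 0.0380 and 0.0358 there, and the highest value in the whole table was 0.0496. Genes outside that table carry no description; the histone loci listed below that are not in it differed by -0.03 to 0.21.

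To set the members beside the families they come from, loci of core histones and of other cell cycle and chromatin genes were listed from memory, with earlier results of these data known, so the lists are no independent evidence of a direction. Only loci in that table can be checked against a description, so the others are counted and not named. Of 36 listed histone loci 34 were tested, of which 20 are members. By limma with Benjamini-Hochberg adjustment over all genes, 17 of the 34 were higher in pine1, 0 lower and 17 not called. Over all genes tested the same rule called 4.02% higher and 2.44% lower. Of the 34 loci, 28 had an unadjusted limma p under 0.05, as did 20.9% of all genes tested. The difference was above 0 in 32 of the 34 and in 12074 of all 24149 genes, with a median of 0.21 for the list and of -0.000036 for all genes. Of the 34 loci, the 20 members were chosen by this contrast. The 14 listed histone loci that are not members gave 0 calls by limma, though 8 had an unadjusted p under 0.05, and 12 of the 14 lay above 0, with a median of 0.14. The authors' table holds none of these 14, so they are set apart by the same contrast and nothing is read from their count. Of 10 listed H4 loci 6 were called higher, of 5 tested H3 loci 1, of 11 H2A loci 6 and of 8 H2B loci 4. The authors' table describes Os03g0279200, which was listed under H2B, as H2A. When each library in turn was left out, these counts were between 1 and 4 for H4, 2 and 4 for H2A and 2 and 4 for H2B. H3 gave 1 to 3.

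The other lists had medians of 0.02 to 0.05. Of 9 DNA replication loci 0 were called by limma in either direction, 1 had an unadjusted p under 0.05, and the median difference was 0.05, although all 9 were above 0. With the replicate block 1 of the 9 was called higher, and leaving out single libraries gave 0 or 1. Of 9 loci of cyclins and cyclin-dependent kinases 2 were called higher, CycB1 and CDKB2, and 1 lower, KRP1; the median was 0.05. The count of higher calls was 1 with upper-quartile scaling, with the filter at 5 CPM and with the replicate block, and 0 or 1 when single libraries were left out. Of 23 tested chromatin modifier loci 0 were called by limma, 4 had an unadjusted p under 0.05, and the median was 0.02. DESeq2 called 1 higher. Over all genes tested limma called 6.46%, and 20.9% had an unadjusted p under 0.05. With lists this short, 0 calls therefore show no lack of change. Within that list only Os10g0104900, CMT2, a chromomethylase described as silencing transposable elements, is in the authors' table, with 7933, 7639 and 9092 normalized reads in pine1 and 7325, 6858 and 6975 in wild type (0.22, SE 0.066). Whether the histone loci differ from these lists was not tested.

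**Figure D4:**
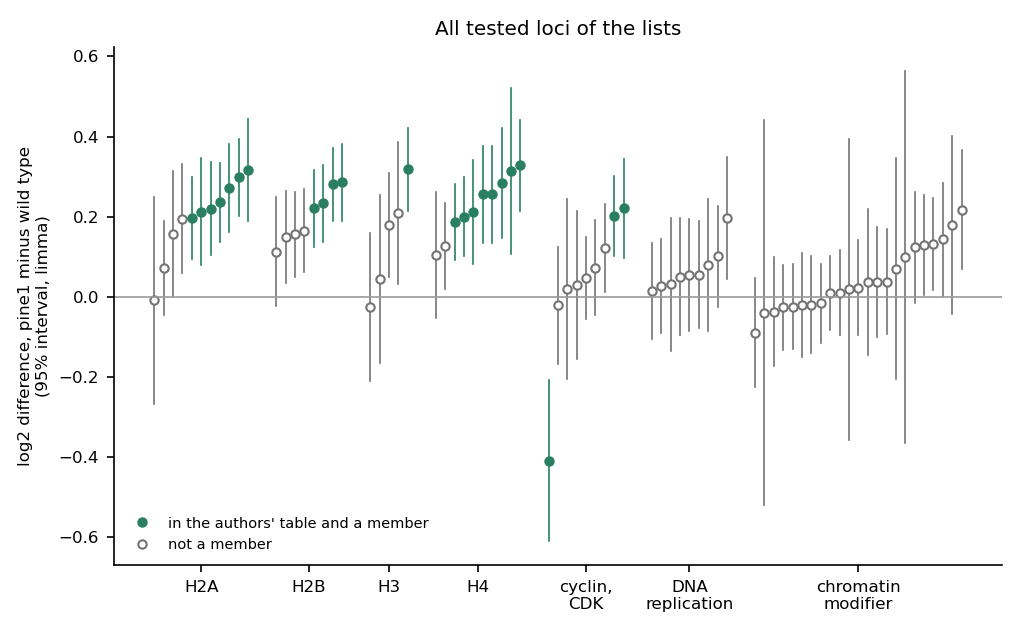
Log2 difference, pine1 minus wild type, with its 95% limma interval for each tested locus of the 7 lists (x axis, loci sorted within a list); filled points are members. Of the 34 histone points 32 lie above 0, but 20 of the 34 are members chosen by this contrast. All 9 DNA replication points also lie above 0, with a median of 0.05. Of the 23 chromatin modifier points 15 do, with a median of 0.02.

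Replicates of a genotype were also compared with their own mean, whose direction is not part of the contrast by which the members were chosen. In 5 of the 6 libraries, at least 17 of the 24 histone members other than Os01g0974600 lay on the same side of their genotype mean. In wild type replicate 1, 21 of the 24 lay below the wild type mean, with a median deviation of -0.043 on the log2 scale, and in wild type replicate 3, 20 lay above it (0.026); in wild type replicate 2, 17 did (0.018). Pine1 replicate 1 was split, with 13 above and 11 below (0.0011). In pine1 replicate 2, 18 lay below the pine1 mean (-0.028), and in pine1 replicate 3, 20 lay above (0.041). The median deviation of all genes tested lay within 0.0032 of 0 in every library, and that of the 7847 genes with a mean of at least 1000 normalized reads within 0.017 of it. Scaling holds the median of all genes near 0, so it does not measure how far a small set can stray. Single genes among the 7847 spread more widely, with quartiles from -0.062 to 0.067 across the libraries. The 8 H4 members were all below the mean in wild type replicate 1 (median -0.074) and all above it in wild type replicate 2 (0.046). In pine1 they were mixed, with 4, 2 and 6 of the 8 above the mean in replicates 1, 2 and 3.

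Kinesin members and the loci listed for DNA replication did not follow the histones in wild type. Of these 9 listed loci 0 are in the authors' table, so their identity could not be checked against a description. Wild type replicate 1, the lowest for histones, was the highest for the 5 kinesins other than Os06g0206700 (median deviation 0.072, all 5 above) and for the 9 DNA replication loci (0.070, all 9 above). In pine1, replicate 3 was highest for histones, for kinesins (0.053) and for DNA replication loci (0.093). The 7847 genes with a mean of at least 1000 normalized reads also had their highest medians in wild type replicate 1 (0.014) and pine1 replicate 3 (0.017). Being highest in these libraries is thus not particular to the kinesin and DNA replication loci, though their medians there were larger. The lowest pine1 library was replicate 1 for the 7847 genes (-0.017). It was replicate 2 for the kinesins (-0.040) and the DNA replication loci (-0.11). Deviations within a genotype are set among 3 libraries that share their mean, so they are given with no test.

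**Figure D5:**
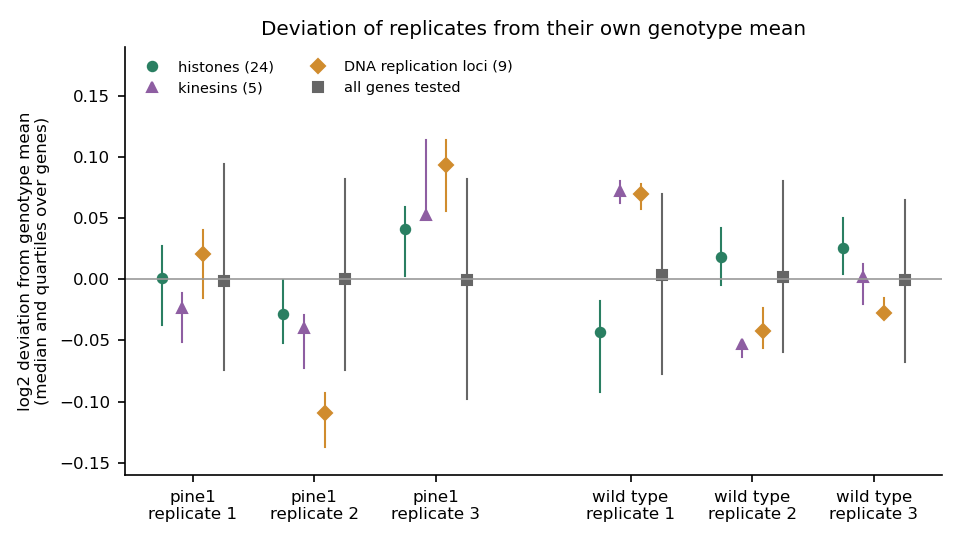
Deviation of each library from its own genotype mean on the log2 scale (y axis), as the median (symbol) and quartiles (line) over genes. Drawn are 24 histone members, 5 kinesin members, 9 loci listed from memory for DNA replication and all 24149 genes tested. In wild type replicate 1 the histones lie below 0 and the other 2 sets above it.

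Markers of the shoot apical meristem, the leaf and the root were read beside the histones. In bulk tissue, more cells of a type and more RNA per cell cannot be told apart. Both KNOX genes of the meristem were higher in pine1: their summed normalized reads ranged from 2202 to 2912 in pine1, against 928 to 1293 in wild type, with OSH1 at 998, 1033 and 761 in pine1 and 281, 441 and 421 in wild type. OSH1 and the histones were both lowest in wild type replicate 1, but in pine1 replicate 3 OSH1 was lowest of its genotype while the histones were highest. The 3 leaf markers summed to 55857 to 63780 in pine1, against 43624 to 51798 in wild type, and limma called 1 of the 3 higher, the chlorophyll-binding gene CAB2R (Os01g0600900, adjusted p = 0.0045). The 2 root markers summed to 109 to 312 in pine1, against 363 to 594 in wild type, and they went opposite ways. The more abundant, which made up most of the sum, averaged 218 in pine1 and 446 in wild type and was not called. The other had few reads, with means of 20.8 in pine1 and 6.50 in wild type, and was called higher. Neither was called lower, and no marker was at 0. The part of these shifts in the histone differences was not tested.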

How the data were processed

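RNA-seq of 6 samples was used, 3 of pine1 and 3 of wild type, grouped by sample title. Per the submitters' processing notes, the tools were FastQC, STAR, HTSeq and DESeq2 and the build was IRGSP-1.0. The tools' settings and versions and the strandedness are not given in the sources. Whether reads of overlapping genes on opposite strands were separated is therefore not known. Per the labels' protocols, mRNA was enriched with oligo(dT) beads and copied with random hexamers. A single deposited sheet carries 2 tables, one above the other. The first holds a signal, the authors' normalized reads, scaled by a size factor: in each library, 100% of values gave whole reads (tolerance 0.001) once multiplied by 1 constant, and these recovered reads were used for filters and count tests. The second holds the authors' comparison, whose fold changes run as wild type over pine1: the sign matched the normalized reads in 1961 of the 1961 genes that the tables share. Descriptions and symbols come from that table alone, and sequences and coordinates are not used here.

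A limma model of genotype (empirical Bayes, intensity trend) was fitted to log2(normalized reads + 1) of the 24149 genes kept by edgeR's filterByExpr with a minimum count of 10, with Benjamini-Hochberg adjustment. Alternatives were pseudocounts of 0.5 and 5, no filter, a filter at 5 CPM, edgeR's quasi-likelihood test, DESeq2, TMM and upper-quartile scaling, a replicate block, and leaving out each library. Scripts were tested on simulated data. Classes follow the descriptions; the rule for names (highest reads, largest rises and falls in each class) covered every member. CMT2 and Os01g0153100 were named after their values were seen. The members and lists were chosen with earlier results of these data known. Counting error only is covered by the read ratio's interval, since reads carried no molecular identifiers. Versions were DESeq2 1.42.0, edgeR 4.0.16 and limma 3.58.1 in R 4.3.3, and matplotlib 3.10.9, scipy 1.17.1, numpy 2.4.6 and pandas 2.3.3 in Python 3.11.15.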

Additional observations from a re-analysis of the deposited data

How the results depend on the processing

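All 46 members kept their direction under every alternative that tested them, and the median difference of the 25 histones stayed between 0.23 and 0.28; the filter at 5 CPM left 42 members. Leaving out single libraries moved the counts most. It gave 12 to 17 members higher and 2 to 4 lower, 9 to 14 histone members higher, 563 to 757 genes of the whole table higher and 261 to 544 lower, 1 to 4 H4 loci, 2 to 4 H2A loci, 2 to 4 H2B loci and 1 to 3 H3 loci higher, 0 to 1 DNA replication loci higher, and 0 to 1 cyclin and kinase loci in each direction. The filter at 5 CPM gave 573 genes higher and 1 cyclin and kinase locus higher; upper-quartile scaling also gave 1. DESeq2 gave 1 chromatin modifier locus higher. The causes were not tested. Same-numbered deviations correlated at 0.055, 0.023 and 0.13 over genes, and differently numbered ones at -0.241 to 0.161. The replicate block gave 1195 genes of the whole table higher, against 970 without it, and 799 lower, against 589. Whether replicate numbers pair the samples is therefore not settled here. With the replicate block 1 DNA replication locus and 1 cyclin and kinase locus were called higher. No scaling moved the median of all genes by more than 0.011.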

Other observations

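By locus identifier, the 46 members are spread over the genome. Chromosome 1 holds 9 and chromosome 2 holds 6, while chromosome 11 holds none of them. Os08g0427700 and Os08g0428800 are the only pair of members with 10 or fewer loci of the normalized table between them, 6 in their case.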
